A study of Homo sapiens with 8 samples.

Results

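Antisense transcripts are RNAs read from the strand opposite to a gene that is already known, and are named after that gene with the ending -AS. The data held 489 such antisense genes, out of 14884 genes measured on the arrays. They were chosen by name alone, as every gene whose single symbol in the probe-to-gene annotation ends in -AS with or without a number. Where several probe sets read 1 gene, as for 24 of the 489, the brightest of them on average stood for it. The sense partner, the gene whose symbol stands before -AS, was also measured for 322 of the antisense genes, which gave 322 pairs with 310 different sense genes. No member was filtered out, and all 489 were tested.

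The study asked how expression differs between RWDD4-overexpressing and control clones of the PC-3 line, which came from a human prostate cancer and grows without androgen. In the RWDD4 group were 4 clonal isolates (clones 17, 24, 5 and 6) with a p-Lenti vector holding RWDD4, whose product carries an RWD domain. In the control group were 4 clonal isolates (clones 2, 3, 4 and 5) with the empty p-Lenti vector. All 8 had gone through selection with blasticidin (blastocydin in the labels), so the cells compared share the line, the vector backbone and the selection. Each clone was measured once on an Affymetrix array, and each is a separate isolate that can differ from the others for reasons other than the vector. P-values measure the spread between these clones. Values of single clones stand in this order of clone numbers throughout.

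An antisense gene may start near the start of its partner and run away from it, lie inside it, or run into its far end. Such RNAs are usually less abundant than messenger RNAs and many stay in the nucleus. Some are known to silence or to stabilise their partner through chromatin, promoter or RNA contacts, while for most no function has been shown. Where 2 genes share a stretch of DNA, the strand a probe reads decides which of them it measures, and the strand of these probe sets is not given in the sources used here. Signal of overlapping partners therefore cannot be told apart where the probes lie in the shared stretch.

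Array medians (log2) were 4.89 to 4.90 for RWDD4 clones against 4.92 to 4.96 for controls, so that the groups did not overlap in them. RWDD4 itself measured 10.42, 10.45, 10.46 and 9.87 in the RWDD4 clones, against 6.64, 7.58, 7.21 and 7.996 in the control clones. All RWDD4 clones were above all control clones, and the difference was 2.94 (SE 0.25, limma adjusted p = 5.98e-05). An exact permutation test over the 70 relabellings gave p = 0.0286, the smallest it can give with 4 clones against 4. Of 4 measured epithelial markers, EPCAM did not pass and the keratins KRT8, KRT18 and KRT19 were lower in the RWDD4 clones, with differences of -0.28, -0.40 and -0.54. The summed level of the list, as its mean per clone, was 8.41 to 8.52 for RWDD4 clones against 8.67 to 8.87 for controls. KLK3, which mature prostate luminal cells make, averaged 5.76 ± 0.16 in the RWDD4 clones and 5.81 ± 0.25 in the control clones (SD, n = 4 each), and did not pass. Markers of other cell types that passed were all lower in the RWDD4 clones. CD14 of blood monocytes, the 1 blood cell marker measured, differed by -0.42 (SE 0.12, limma adjusted p = 0.0159). Of 4 stromal markers THY1 and VWF were lower and PECAM1 and DES did not pass, with a mean over the list of 5.64 to 5.75 for RWDD4 clones against 5.88 to 6.15 for controls. Both neuroendocrine markers measured, SYP and CHGA, were lower, with a mean of 6.05 to 6.21 for RWDD4 clones against 6.37 to 6.58 for controls. Their part in the differences of the antisense genes was not tested.

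A smaller share of the antisense genes than of all genes passed the test, and most of those that passed were lower in the RWDD4 clones. Of the 489, 20 were higher and 78 were lower with a limma adjusted p under 0.05, which is 20.04%. Over all 14884 genes 46.7% passed, 25.1% higher and 21.6% lower. The groups did not overlap for 107 of the 489 antisense genes (21.9%), against 44.8% of all genes. They did not overlap for 18 of the 20 higher and for 62 of the 78 lower antisense genes. Among 917 other long non-coding RNA genes the picture was much the same, with 59 higher and 141 lower (21.8%), and among 11916 protein-coding genes 52.7% passed. The median difference was -0.14 over the antisense genes, -0.13 over the other long non-coding RNA genes and -0.08 over all genes. Of the 489 differences 376 were negative (76.9%), against 74.6% for the other long non-coding RNA genes and 59.4% for all genes. At least 2-fold differences were few, with 2 antisense genes at least 2-fold higher and 0 at least 2-fold lower. Over all 14884 genes 1450 were at least 2-fold higher and only 62 at least 2-fold lower.

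The balance of these counts varied with how the arrays were scaled. Quantile normalization gave 24 higher and 75 lower. With cyclic loess, which brings the median difference of all genes to 0.00, the counts were 31 higher and 30 lower, and with each array centred on its median they were 28 higher and 51 lower. With a covariate that places each array along the main direction in which clones of 1 group varied (the within-group axis), 0 antisense genes passed in either direction in limma, while 17 higher and 19 lower had an unadjusted p under 0.05. That axis held 38.9% of the variance within groups, and all 4 RWDD4 clones lay above all 4 control clones on it, so the axis and the group cannot be told apart in full. RWDD4 itself missed the threshold in that fit, with a difference of 1.88 and an adjusted p of 0.159. Leaving out 1 clone at a time gave 17 to 23 higher and 46 to 80 lower. The count of lower genes was 46 without RWDD4 clone 5 and 48 without RWDD4 clone 6.

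**Figure D1:**
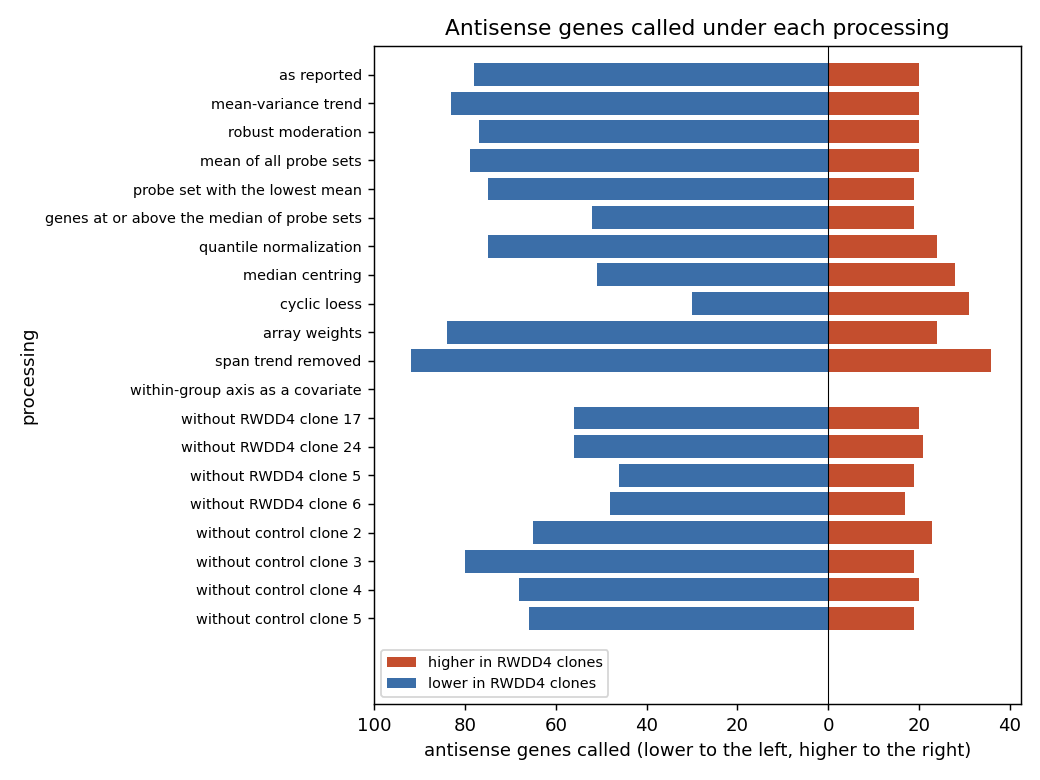
Number of the 489 antisense genes called lower (bars to the left) and higher (bars to the right) in the RWDD4 clones under each processing of the values. Lower calls outnumber higher ones under most of them, the counts are near equal with cyclic loess (31 higher and 30 lower), and no gene is called when the within-group axis enters the fit.

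The mean over all 489 antisense genes separated the groups in every clone. It was 4.89, 4.86, 4.83 and 4.83 in the RWDD4 clones, against 5.00, 4.93, 4.94 and 4.95 in the control clones. Control clone 2 was highest and RWDD4 clones 5 and 6 were lowest. The array medians parted the groups the same way, and their part in this was not tested. Fewer cells carrying a transcript and less of it per cell cannot be told apart in such bulk RNA.

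Probe sets of antisense genes were dim, and the counts went with the level. The level of a probe set is its brightness, which does not give the abundance of 1 RNA against another. Of the 489, 263 (53.8%) had a mean under 4.93, the median over all probe sets, against 29.2% of all genes. Of the 226 antisense genes at or above that median, 17 were higher and 48 were lower (28.8%), while 37.3% of the other long non-coding RNA genes and 59.8% of all genes above it passed. In bins of equal level the shares called lower were nearer to each other than those called higher from a level of 4 upwards. Among genes with a mean level of 6 to under 7, 29.2% of 65 antisense genes and 27.1% of 2638 genes of all kinds were lower. In the same bin 7.69% of the antisense genes and 34.8% of all genes were higher. For the 28 antisense genes at a level of 7 or more, 21.4% were higher and 32.1% were lower, against 40.3% and 29.5% of all genes at that level. At levels of 6 and more the shortfall against other genes thus lay on the side of the genes that were higher in the RWDD4 clones. These shares are descriptions and were not tested.

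**Figure D2:**
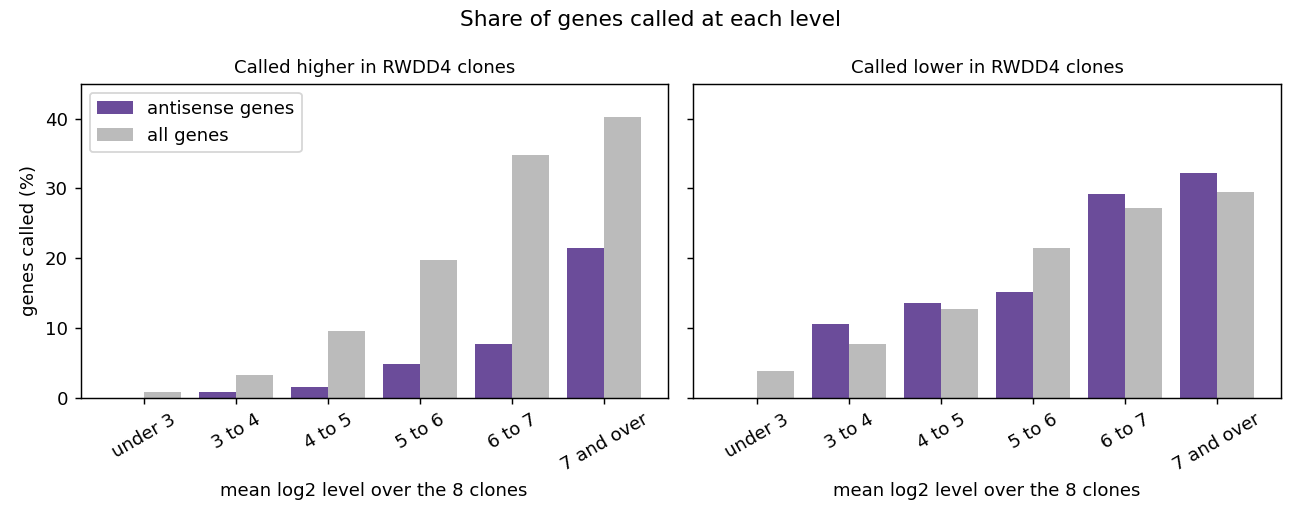
Share of genes called higher (left panel) and lower (right panel) in the RWDD4 clones, in percent, by the mean log2 level over the 8 clones, for antisense genes and for all genes. In every bin a smaller share of antisense genes was called higher, while from a level of 4 upwards the shares called lower differ by less, at 29.2% and 27.1% for a level of 6 to under 7.

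Genomic span, the distance from a gene's first to its last base, also moved with the calls. The antisense genes had a median span of 11759 bases, the other long non-coding RNA genes 11662 and all genes 20712. Of all genes spanning 2000 to under 5000 bases 5.49% were higher and 36.4% were lower, whereas of those spanning 100000 bases or more 43.7% were higher and 7.18% were lower. The antisense genes varied less along the same bins, with 3.09% of 97 higher and 18.6% lower in the shorter bin and 5.26% of 38 higher and 13.2% lower in the longer one. With each array's trend over span removed, 36 antisense genes were higher and 92 were lower, and of these 19 and 36 were also among the 20 and the 78.

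The antisense gene with the largest difference was ZNF667-AS1 on chromosome 19, also known as MORT, a transcript reported to be silenced by promoter methylation in many cancers. It measured 8.59, 7.86, 8.15 and 8.63 in the RWDD4 clones, against 6.48, 7.28, 6.77 and 6.95 in the control clones. Every RWDD4 clone was above every control clone, and the difference was 1.44 (SE 0.20, limma adjusted p = 0.000304). HIF1A-AS2 starts at the far end of the gene for the hypoxia factor HIF1A and is known to be induced by low oxygen. It measured 7.37, 7.29, 6.36 and 6.53 in the RWDD4 clones, against 5.62, 6.17, 5.60 and 5.90 in the control clones. RWDD4 clones 17 and 24 were higher than clones 5 and 6, the groups did not overlap, and the difference was 1.07 (SE 0.23, limma adjusted p = 0.00378). NR2F1-AS1 starts next to the gene of the nuclear receptor NR2F1. It measured 6.92, 6.68, 6.93 and 6.999 in the RWDD4 clones, against 5.82, 5.96, 5.86 and 6.22 in the control clones. The 4 RWDD4 clones lay close together and above all controls, with a difference of 0.92 (SE 0.11, limma adjusted p = 0.000159). None of these 3 had its sense partner among the measured genes under the symbol used.

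Next in size came LOXL1-AS1, which is taken up with its partner, and THAP9-AS1, whose partner THAP9 encodes a protein related to a DNA transposase. THAP9-AS1 measured 5.80, 5.94, 6.47 and 6.19 in the RWDD4 clones, against 5.08, 5.05, 5.15 and 5.64 in the control clones. The groups did not overlap, with control clone 5 nearest to the RWDD4 clones, and the difference was 0.87 (SE 0.17, limma adjusted p = 0.002). THAP9 itself measured 4.10, 4.21, 4.22 and 4.28 in the RWDD4 clones, against 3.95, 3.78, 4.40 and 4.07 in the control clones. Its groups overlapped and it did not pass (0.15, adjusted p = 0.341), and the antisense-minus-sense value of the pair was higher in the RWDD4 clones, with a difference of 0.72 (SE 0.19, limma adjusted p = 0.00912). FGD5-AS1 is a long non-coding RNA studied in several tumour types and was among the 6 antisense genes with the highest level here. It measured 8.83, 8.57, 8.65 and 8.61 in the RWDD4 clones, against 7.42, 7.93, 8.06 and 8.19 in the control clones, with all RWDD4 clones above all controls and a difference of 0.77 (SE 0.15, limma adjusted p = 0.00237).

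BACE1-AS is known to pair with and stabilise the messenger RNA of BACE1, the protease that starts the cleavage of the amyloid precursor. BACE1-AS measured 5.63, 5.51, 6.11 and 5.74 in the RWDD4 clones, against 4.35, 5.21, 5.37 and 5.18 in the control clones. The groups did not overlap, control clone 2 was far below the other controls, and the difference was 0.72 (SE 0.21, limma adjusted p = 0.017). Without RWDD4 clone 5 it missed the threshold (0.60, limma adjusted p = 0.0531), and over the 8 fits that each left out a clone its difference ran from 0.50 to 0.84. BACE1 measured 7.71, 7.55, 7.52 and 7.74 in the RWDD4 clones, against 7.38, 7.54, 7.56 and 7.75 in the control clones. These groups overlapped, and BACE1 did not pass (0.07, adjusted p = 0.575).

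The other leading antisense genes on the higher side were KTN1-AS1, SVIL-AS1, ELOA-AS1, THUMPD3-AS1 and RBM26-AS1. KTN1-AS1, named for the endoplasmic reticulum protein kinectin, measured 5.71, 5.69, 5.86 and 5.96 in the RWDD4 clones, against 5.24, 5.21, 5.23 and 4.87 in the control clones. The groups did not overlap, and control clone 5 was apart from the other controls. Its difference was 0.67 (SE 0.11, limma adjusted p = 0.000856). ELOA-AS1, named for the transcription elongation factor elongin A, measured 7.43, 7.38, 7.66 and 7.29 in the RWDD4 clones, against 6.91, 7.24, 6.54 and 6.80 in the control clones. The RWDD4 clones were all higher, control clone 3 coming nearest to them, with a difference of 0.57 (SE 0.15, limma adjusted p = 0.00884).

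**Figure D3:**
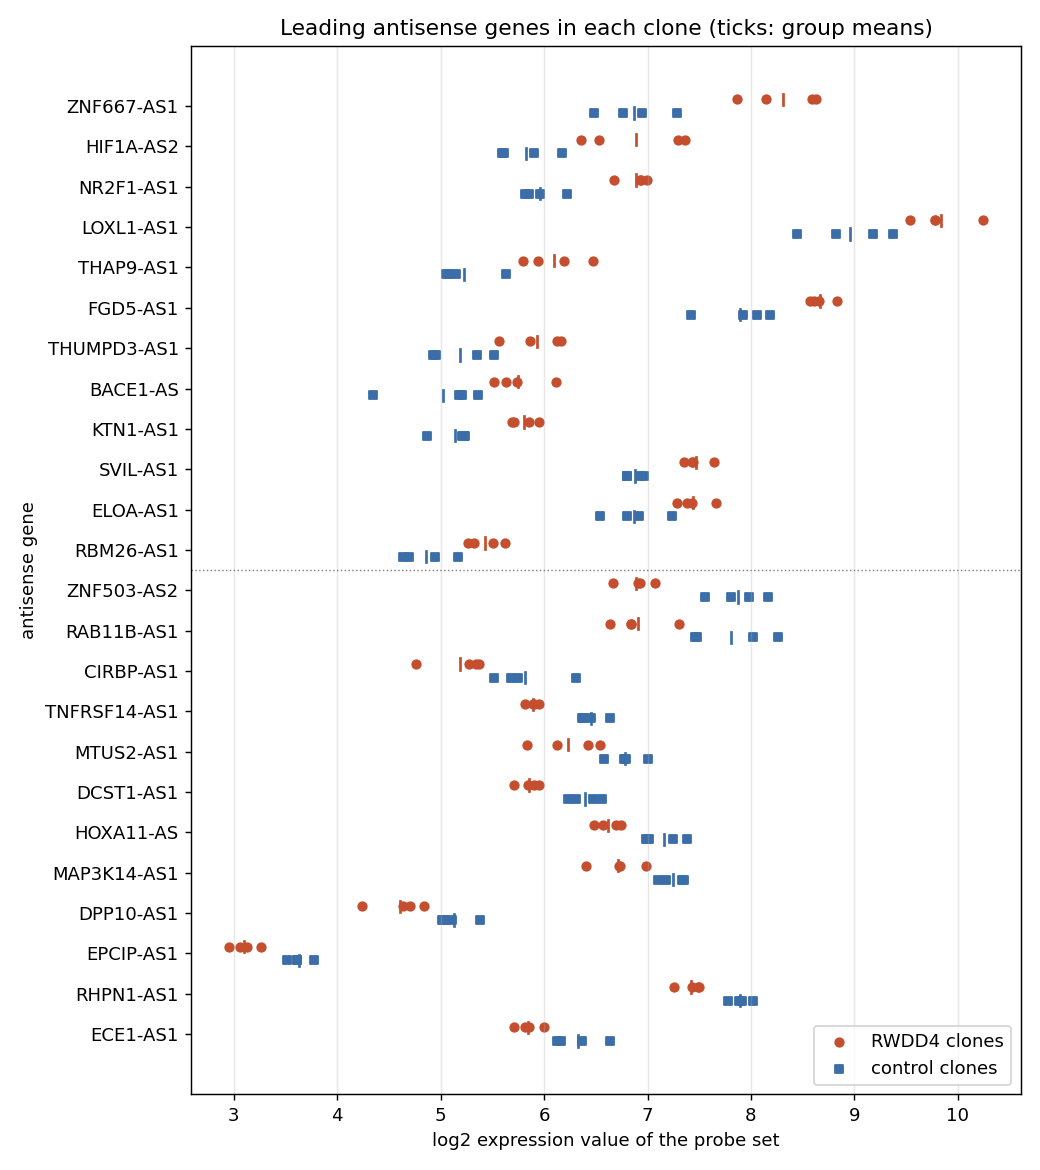
Log2 expression values (x axis) of the 12 antisense genes with the largest differences in each direction among those that passed with no overlap, in each RWDD4 clone (circles) and each control clone (squares), with ticks at the group means. ZNF667-AS1 at the top averaged 8.31 in the RWDD4 clones and 6.87 in the control clones, and ZNF503-AS2 leads the lower 12 with 6.89 and 7.88.

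On the lower side the largest difference belonged to ZNF503-AS2, whose partner ZNF503 encodes a zinc finger repressor of transcription. ZNF503-AS2 measured 6.90, 7.07, 6.92 and 6.67 in the RWDD4 clones, against 8.16, 7.98, 7.81 and 7.55 in the control clones. All RWDD4 clones were below all controls, and it fell, with a difference of -0.99 (SE 0.14, limma adjusted p = 0.000304). The other antisense gene of this partner, ZNF503-AS1, averaged 3.90 ± 0.09 in the RWDD4 clones and 3.98 ± 0.17 in the control clones (SD, n = 4 each) and did not pass (adjusted p = 0.565). RAB11B-AS1, named for a GTPase of recycling endosomes, measured 6.84, 7.30, 6.64 and 6.84 in the RWDD4 clones, against 8.02, 8.26, 7.48 and 7.46 in the control clones. The groups did not overlap, with RWDD4 clone 24 nearest to the controls, and the difference was -0.90 (SE 0.20, limma adjusted p = 0.00407). CIRBP-AS1 measured 5.35, 5.37, 5.27 and 4.76 in the RWDD4 clones, against 6.31, 5.75, 5.68 and 5.52 in the control clones. RWDD4 clone 6 was the lowest and control clone 2 the highest, the groups did not overlap, and the difference was -0.62 (SE 0.18, limma adjusted p = 0.0178). Its partner CIRBP, a cold-inducible RNA-binding protein, measured 9.003, 9.22, 9.47 and 8.33 in the RWDD4 clones, against 9.11, 9.12, 9.27 and 9.10 in the control clones. These groups overlapped and CIRBP did not pass (-0.15, adjusted p = 0.567). That holds for the brighter of its 2 probe sets only. CIRBP passed with the dimmer one and with the mean of both.

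TNFRSF14-AS1, named for a receptor of the tumour necrosis factor family, measured 5.82, 5.90, 5.95 and 5.90 in the RWDD4 clones, against 6.63, 6.45, 6.38 and 6.37 in the control clones. Both groups were tight and did not overlap, with a difference of -0.57 (SE 0.09, limma adjusted p = 0.000656). HOXA11-AS lies in the HOXA cluster of developmental transcription factor genes. It measured 6.74, 6.57, 6.48 and 6.69 in the RWDD4 clones, against 7.38, 7.25, 6.98 and 7.01 in the control clones, and all RWDD4 clones were below all controls, with a difference of -0.54 (SE 0.11, limma adjusted p = 0.0033). The differences of 6 more leading antisense genes on this side, MTUS2-AS1, DCST1-AS1, MAP3K14-AS1, DPP10-AS1, EPCIP-AS1 and ECE1-AS1, lay between -0.56 and -0.48. The partners MTUS2, DCST1, MAP3K14, DPP10 and EPCIP did not pass, with differences of -0.20, -0.22, -0.11, -0.09 and -0.19 and adjusted p-values of 0.0759, 0.0891, 0.575, 0.443 and 0.2. ECE1, the endothelin-converting enzyme, was lower, with a difference of -0.32 (SE 0.12, limma adjusted p = 0.0465), a call lost without any one of RWDD4 clones 17, 24 and 5 and control clones 3, 4 and 5.

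Among the sense partners more genes were higher than lower in the RWDD4 clones, the other way round from their antisense genes. Of the 310, 108 were higher and 55 were lower in the RWDD4 clones (52.6%, against 46.7% of all genes), with a median difference of 0.03. The share that passed was close to that of the 11916 protein-coding genes (52.7%), of which 3578 were higher and 2706 were lower. The sense partners were also long, with a median span of 67326 bases against 20712 for all genes. Of all genes spanning 100000 bases or more 43.7% were higher and 7.18% were lower. The part of gene type and span in these counts was not tested. The count of lower sense genes was 24 without RWDD4 clone 5, 32 without RWDD4 clone 6, 33 without control clone 2 and 35 without RWDD4 clone 24 or control clone 4. In the 322 pairs the most frequent outcome was a sense gene that passed beside an antisense gene that did not, with 104 sense genes higher and 41 lower. Neither member passed in 112 pairs. In 38 pairs the antisense gene passed alone, 5 higher and 33 lower. Both members were higher in 5 pairs (1.55%) and both were lower in 14 (4.35%), and the members passed in opposite directions in 8 (2.48%). Among 4652 pairs of measured genes next to each other in the reference gene order, both were higher in 8.49%, both were lower in 11.7% and the members went opposite ways in 4.45%. With both members at or above the median over probe sets, these shares were 3.65%, 8.76% and 2.19% of 137 antisense-sense pairs. Of 2700 such neighbouring pairs they were 12.9%, 18.6% and 5.67%.

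Across the 322 pairs the 2 differences correlated at r = 0.27 (Spearman rho 0.28), and they had the same sign in 57.5%. Across the neighbouring pairs r was 0.34 and the sign was the same in 67.4%. Pairs of either kind share the arrays, and they are not independent replicates. When both members were at or above the median level, r was 0.42 over 137 antisense-sense pairs and 0.47 over 2700 neighbouring pairs. In both sets r was lower for the antisense-sense pairs than for the neighbouring pairs.

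**Figure D4:**
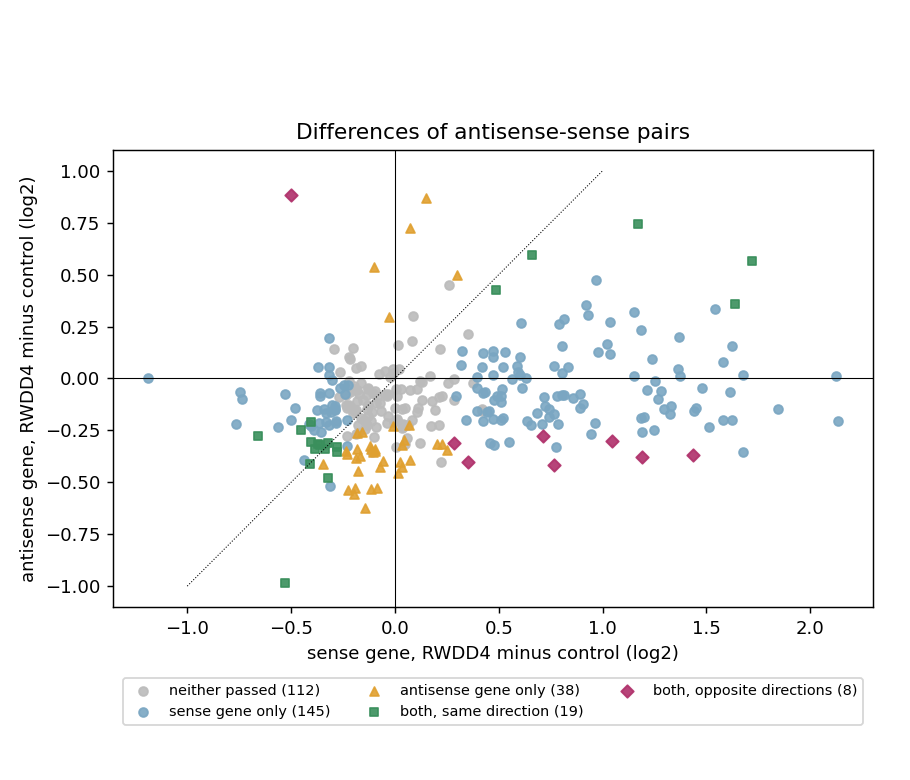
Difference between RWDD4 and control clones (log2) of the antisense gene (y axis) against that of its sense partner (x axis) for 322 pairs, coloured by which member passed; the dotted line marks equal differences. Most points spread along the x axis, with sense genes up to 2.13 higher and antisense genes close to 0, and LOXL1-AS1 stands alone at the upper left.

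Whether the members of a pair moved by different amounts was tested on the antisense-minus-sense log2 value in each clone, fitted together with the neighbouring pairs. It passed in 112 of the 322 pairs (34.8%), against 33.8% of the neighbouring pairs and 33.9% of all 4974 pairs fitted. Of the 112, 103 were lower in the RWDD4 clones and 9 were higher, while the neighbouring pairs, whose order is arbitrary, split into 826 lower and 748 higher. Among the 10 pairs with the smallest adjusted p was that of DIAPH3-AS1, which lies inside DIAPH3. DIAPH3 encodes a formin that nucleates actin filaments. DIAPH3-AS1 measured 5.12, 5.02, 5.03 and 5.38 in the RWDD4 clones, against 5.18, 5.26, 5.56 and 5.36 in the control clones. DIAPH3 measured 7.62, 7.46, 7.81 and 7.74 in the RWDD4 clones, against 5.65, 5.95, 6.07 and 6.46 in the control clones. The antisense values overlapped between groups (adjusted p = 0.175), whereas the sense gene was higher in every RWDD4 clone, by 1.62 (SE 0.16, limma adjusted p = 6.74e-05). The antisense-minus-sense value, whose zero has no meaning because it spans 2 probe sets, was -2.51, -2.44, -2.78 and -2.35 in the RWDD4 clones, against -0.47, -0.69, -0.51 and -1.10 in the control clones. It was lower in all RWDD4 clones, with a difference between the groups of -1.82 (SE 0.17, limma adjusted p = 2.68e-05).

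OPA1-AS1 lies inside OPA1, whose product fuses the inner membranes of mitochondria. OPA1-AS1 measured 2.52, 2.81, 2.61 and 2.67 in the RWDD4 clones, against 2.76, 2.69, 2.52 and 2.59 in the control clones. These are near the bottom of the scale, and the groups overlapped. OPA1 measured 8.36, 8.06, 8.37 and 8.44 in the RWDD4 clones, against 5.74, 6.41, 6.22 and 6.35 in the control clones. Every RWDD4 clone was far above every control clone, with a difference of 2.13 (SE 0.15, limma adjusted p = 5.26e-05). The antisense-minus-sense value was lower, with a difference of -2.11 (SE 0.20, limma adjusted p = 2.68e-05). Folds are compressed at so low a level, which limits what the antisense value can show.

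ZNF143-AS1 had the brightest antisense probe set among these 10 pairs, and its partner ZNF143 encodes a transcription factor that binds many promoters. ZNF143-AS1 measured 6.62, 6.43, 6.53 and 6.60 in the RWDD4 clones, against 6.85, 6.54, 6.75 and 6.67 in the control clones. ZNF143 measured 7.44, 7.31, 7.78 and 7.32 in the RWDD4 clones, against 5.77, 6.36, 5.92 and 6.05 in the control clones. The sense gene had no overlap (1.44, SE 0.15, limma adjusted p = 7.53e-05), and the antisense gene did not pass (adjusted p = 0.203). The pair's antisense-minus-sense value was lower, with a difference of -1.60 (SE 0.19, limma adjusted p = 6.57e-05).

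The other 7 of these 10 pairs had the same form. The sense genes were SPAG5, a spindle protein also called astrin, RAD21, the cleavable subunit of cohesin, HMGN3, a nucleosome-binding protein, OBI1, a ubiquitin ligase of the origin recognition complex, and CFAP418, VWA8 and PLPPR5. Their differences ranged from 1.19 for RAD21 to 1.58 for SPAG5, with adjusted p-values of 0.00101 or less, and the groups of each did not overlap. The differences of their antisense genes lay between -0.26 for RAD21-AS1 and -0.10 for HMGN3-AS1, and none passed. All of these antisense genes but SPAG5-AS1 had a mean level under 4.93, the median over all probe sets. Their levels ran from 3.52 for VWA8-AS1 to 4.75 for HMGN3-AS1. So dim an antisense value may show little change, and the antisense-minus-sense value then mostly follows the sense gene. The part of level in this was not tested. The brighter DIAPH3-AS1, SPAG5-AS1 and ZNF143-AS1, with mean levels of 5.24, 5.24 and 6.62, did not pass either. OBI1 was highest in RWDD4 clone 5, at 7.54 against 6.77 to 6.90 in the other RWDD4 clones, and VWA8 was lowest in RWDD4 clone 24, at 7.07 against 7.46 to 7.52.

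LOXL1-AS1 and LOXL1 were the single pair in which the antisense gene was higher and the sense gene was lower. LOXL1 encodes an enzyme that cross-links elastin, and LOXL1-AS1 has been studied in exfoliation glaucoma. The annotated starts of the pair are 1786 bases apart, and the genes overlap there. LOXL1-AS1, the antisense gene with the highest level of all 489, measured 9.78, 9.53, 9.78 and 10.24 in the RWDD4 clones, against 8.45, 8.82, 9.18 and 9.37 in the control clones. LOXL1 measured 9.49, 9.12, 8.92 and 9.43 in the RWDD4 clones, against 9.95, 9.88, 9.60 and 9.54 in the control clones. All RWDD4 clones were above all controls for the antisense gene (0.88, SE 0.20, limma adjusted p = 0.00518) and below all controls for the sense gene (-0.50, SE 0.15, limma adjusted p = 0.017). The antisense-minus-sense value was 0.29, 0.41, 0.86 and 0.81 in the RWDD4 clones, against -1.51, -1.06, -0.42 and -0.17 in the control clones. It was higher in all RWDD4 clones, with a difference of 1.38 (SE 0.26, limma adjusted p = 0.00109). The second probe set of LOXL1-AS1 was also higher, by 0.60 (SE 0.22, limma adjusted p = 0.0473). LOXL1 lost its call without RWDD4 clone 5 (adjusted p = 0.0507).

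In the other 7 opposite pairs the antisense gene was lower and the sense gene was higher. Of these antisense genes EGFR-AS1, STXBP5-AS1 and USP30-AS1 were dim, with mean levels of 4.02, 3.56 and 4.45. All 3 lay under 4.93, the median over all probe sets. EGFR encodes the receptor of epidermal growth factor, and EGFR-AS1 has been studied for its effect on EGFR splicing. EGFR-AS1 measured 3.83, 3.89, 3.70 and 3.94 in the RWDD4 clones, against 4.33, 4.16, 4.27 and 4.07 in the control clones. EGFR measured 8.30, 7.78, 8.35 and 8.91 in the RWDD4 clones, against 6.50, 7.05, 6.91 and 7.14 in the control clones. Neither gene's groups overlapped, with differences of -0.37 (SE 0.10, limma adjusted p = 0.00949) for the antisense gene and 1.43 (SE 0.22, limma adjusted p = 0.000476) for the receptor. EHBP1, an adaptor of endocytosis, was higher by 1.05 (SE 0.15, limma adjusted p = 0.000296), a call lost with the dimmer of its 2 probe sets. EHBP1-AS1 measured 5.43, 5.48, 5.39 and 5.28 in the RWDD4 clones, against 5.72, 5.58, 5.61 and 5.85 in the control clones. It was lower in all RWDD4 clones, with a difference of -0.30 (SE 0.09, limma adjusted p = 0.0234), a call lost without RWDD4 clone 5, RWDD4 clone 6 or control clone 5. WWC2, of the KIBRA family, measured 6.13, 5.92, 6.44 and 6.48 in the RWDD4 clones, against 5.37, 5.48, 5.42 and 5.62 in the control clones. WWC2-AS2 measured 5.06, 5.01, 4.73 and 4.89 in the RWDD4 clones, against 5.19, 5.37, 5.43 and 5.38 in the control clones. The pair parted in both directions with no overlap, with differences of 0.77 (SE 0.13, limma adjusted p = 0.000966) for WWC2 and -0.42 (SE 0.10, limma adjusted p = 0.00676) for WWC2-AS2.

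HHIP binds and holds back Hedgehog ligands. HHIP measured 4.88, 5.32, 5.17 and 5.17 in the RWDD4 clones, against 4.21, 4.19, 4.58 and 4.73 in the control clones. HHIP-AS1 measured 5.39, 5.50, 5.61 and 5.46 in the RWDD4 clones, against 5.89, 5.66, 5.73 and 5.78 in the control clones. The groups did not overlap for either gene, HHIP being higher and HHIP-AS1 lower in the RWDD4 clones. HHIP differed by 0.71 (SE 0.14, limma adjusted p = 0.0025) and HHIP-AS1 by -0.28 (SE 0.09, limma adjusted p = 0.0277), and the call of HHIP-AS1 was lost without any one of RWDD4 clones 17, 24 and 6 and control clones 2 and 5 (adjusted p up to 0.0746). STXBP5, also called tomosyn, restrains vesicle fusion. It measured 7.43, 7.45, 7.29 and 7.62 in the RWDD4 clones, against 5.35, 7.37, 5.99 and 6.31 in the control clones. Control clone 3 lay within the range of the RWDD4 clones and control clone 2 was lowest, so the groups overlapped even though the gene passed with a difference of 1.19 (SE 0.33, limma adjusted p = 0.013). STXBP5-AS1 measured 3.43, 3.48, 3.26 and 3.30 in the RWDD4 clones, against 3.78, 3.99, 3.57 and 3.65 in the control clones and was lower, with a difference of -0.38 (SE 0.11, limma adjusted p = 0.0157). Its other 2 probe sets did not pass (-0.05 and -0.10, limma adjusted p = 0.669 and 0.487), and the call was lost with the mean of its probe sets (-0.18, limma adjusted p = 0.157) and with cyclic loess (-0.29, limma adjusted p = 0.0541).

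The last 2 opposite pairs were weak. ZNF566, a zinc finger gene, differed by 0.35 (SE 0.13, limma adjusted p = 0.0489), with RWDD4 clone 17 inside the control range, and lost its call in 7 of the 8 fits that left out a clone, all but the one without RWDD4 clone 17. ZNF566-AS1 differed by -0.40 (SE 0.13, limma adjusted p = 0.0252) and lost it without RWDD4 clone 17, RWDD4 clone 24 or control clone 3. USP30, a mitochondrial deubiquitinase that counters mitophagy, differed by 0.28 (SE 0.10, limma adjusted p = 0.0329) and lost its call in 5 of 8 such fits (RWDD4 clones 24, 5 and 6 and control clones 2 and 4). USP30-AS1 differed by -0.31 (SE 0.10, limma adjusted p = 0.0218) and lost it without RWDD4 clones 5 or 6 or control clone 4. Leaving out 1 clone at a time gave 4 to 9 opposite pairs in all, with 4 without RWDD4 clone 5, 4 without RWDD4 clone 6 and 5 without RWDD4 clone 24. With cyclic loess there were 3. With the span trend removed the antisense calls of all 8 pairs except LOXL1-AS1 and STXBP5-AS1 were lost.

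**Figure D5:**
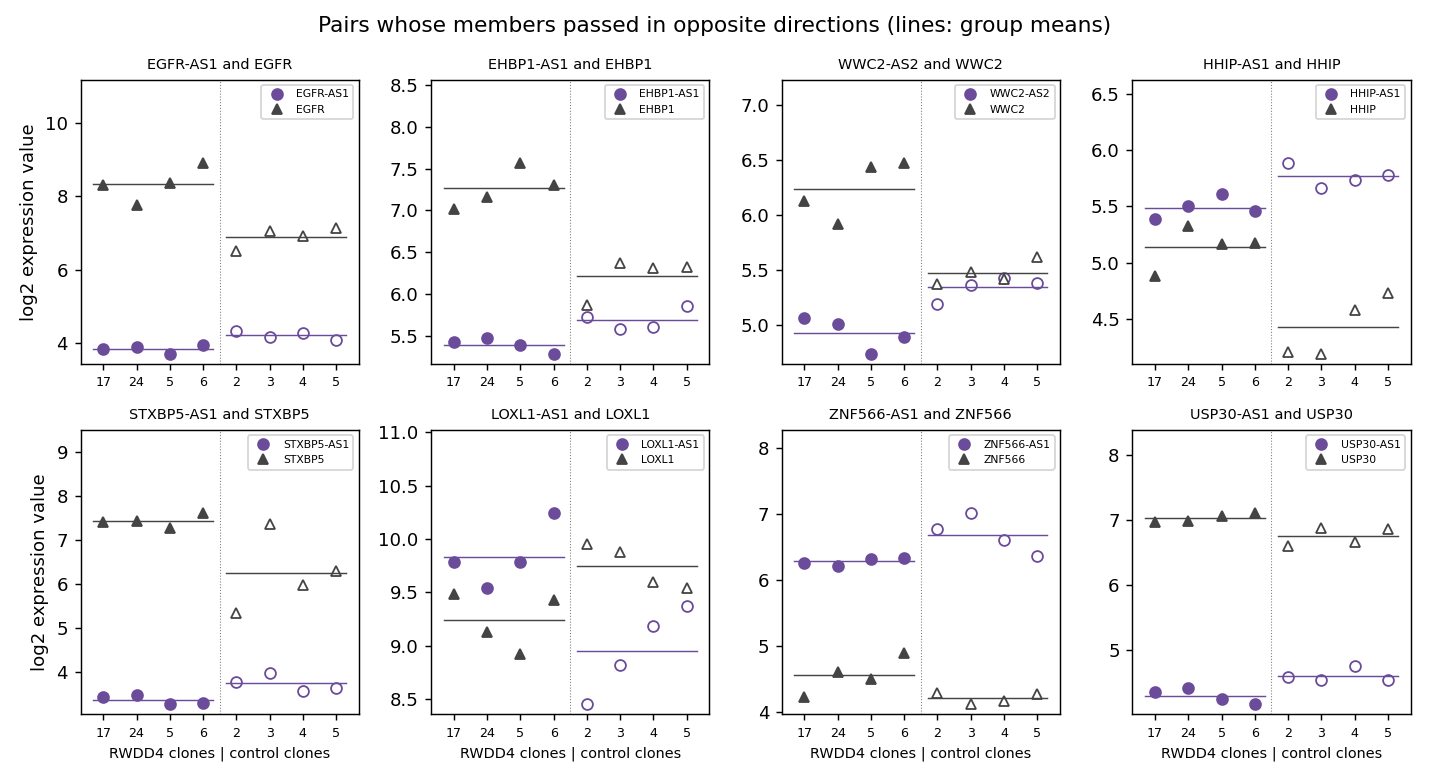
Log2 expression values of the antisense gene (circles) and the sense gene (triangles) in each clone for the 8 pairs whose members passed in opposite directions, with RWDD4 clones on the left (filled) and control clones on the right (open) and lines at the group means. LOXL1-AS1 averaged 9.83 in the RWDD4 clones and 8.95 in the control clones while LOXL1 averaged 9.24 and 9.74; in the other 7 pairs the sense gene is the one that is higher.

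Both members were higher in the pairs of THUMPD3-AS1, SVIL-AS1, RBM26-AS1, MCM3AP-AS1 and ARHGAP5-AS1; the last was singled out after its values were seen. THUMPD3 encodes an enzyme that methylates transfer RNA. THUMPD3-AS1 measured 6.13, 5.87, 5.56 and 6.16 in the RWDD4 clones, against 4.93, 4.96, 5.36 and 5.51 in the control clones. THUMPD3 measured 8.21, 7.72, 7.98 and 7.76 in the RWDD4 clones, against 6.41, 6.95, 6.86 and 6.76 in the control clones. Neither overlapped, with differences of 0.74 (SE 0.17, limma adjusted p = 0.0049) for the antisense and 1.17 (SE 0.14, limma adjusted p = 0.000154) for the sense gene. SVIL encodes supervillin, which ties actin to membranes. SVIL-AS1 measured 7.44, 7.43, 7.64 and 7.35 in the RWDD4 clones, against 6.80, 6.93, 6.80 and 6.97 in the control clones. SVIL measured 6.94, 6.79, 7.20 and 6.85 in the RWDD4 clones, against 6.11, 6.13, 6.33 and 6.57 in the control clones. The pair moved by near the same amount, 0.59 (SE 0.09, limma adjusted p = 0.000633) and 0.66 (SE 0.13, limma adjusted p = 0.00209), and the antisense-minus-sense value did not pass (adjusted p = 0.741). MCM3AP-AS1 was higher by 0.42 (SE 0.14, limma adjusted p = 0.0285), with overlap between the groups, and lost its call without any one of RWDD4 clones 17 and 6 and control clones 3 and 5. Without RWDD4 clone 6 both members were higher in 3 pairs. With cyclic loess both were higher in 12 pairs and both lower in 2.

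RBM26 encodes an RNA-binding protein. RBM26-AS1 measured 5.32, 5.26, 5.62 and 5.50 in the RWDD4 clones, against 4.63, 4.70, 4.95 and 5.17 in the control clones. RBM26 measured 7.51, 7.40, 7.70 and 7.98 in the RWDD4 clones, against 5.37, 6.27, 5.93 and 6.15 in the control clones. Both were above the controls in every RWDD4 clone, and the sense gene moved more, by 1.72 (SE 0.19, limma adjusted p = 0.000107) against 0.57 (SE 0.13, limma adjusted p = 0.00609). The antisense-minus-sense value was accordingly lower, with a difference of -1.15 (SE 0.18, limma adjusted p = 0.000312). The other probe set of RBM26-AS1, with a mean level of 3.40, did not pass and had the opposite sign (-0.05, adjusted p = 0.663). The 14 pairs with both members lower included ZNF503-AS2 and ZNF503, where ZNF503 measured 8.75, 8.96, 8.87 and 8.55 in the RWDD4 clones, against 9.46, 9.43, 9.10 and 9.26 in the control clones. ZNF503 had no overlap and differed by -0.53 (SE 0.12, limma adjusted p = 0.00414), less than its antisense gene. The 14 became 3 to 9 when any 1 clone was left out, with 3 without RWDD4 clone 5, 4 without RWDD4 clone 6 and 5 without RWDD4 clone 24.

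The arrangement of the pairs could be read for 221, all of which lay on opposite strands, and was not analysed here for 101. Of 31 pairs lying back to back without overlap, 4 antisense genes were higher and 5 lower, beside 18 sense genes higher and 2 lower. Their antisense-minus-sense value passed in 17 (54.8%), 16 of them lower, against 40.3% of 511 neighbouring pairs in the same arrangement. Of 79 antisense genes inside their partner, 0 were higher and 9 were lower at an adjusted p under 0.05 in limma, against 4.09% higher and 15.95% lower over all antisense genes and 25.1% and 21.6% over all genes. Of these 79, 65.8% were under the median over probe sets. Of 65 pairs overlapping at the starts, 2 antisense genes were higher and 10 were lower, beside 28 sense genes higher and 16 lower. Of 36 overlapping at the ends, 3 antisense genes were higher and 8 were lower, and r between the members was 0.58 over these 36 pairs, which share the arrays and, at their ends, DNA. These shares were not tested against each other.

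Promoter windows of 250 bases before and 50 after the start, from RefSeq on GRCh38.p14, were matched for 374 of the 489 antisense genes. In 28 pairs the 2 windows share bases, so that both genes start from 1 short stretch in opposite directions. Of these 28 antisense genes 2 were higher and 3 were lower, beside 16 sense genes higher and 2 lower, with medians of -0.15 and 0.43. Both members passed in the same direction in 1 pair (3.57%), in opposite directions in 3 pairs, and the antisense-minus-sense value was lower in 15. Of 216 pairs of neighbouring protein-coding genes whose windows share bases in the same way, 60 had both members higher, 22 both lower and 5 opposite (38.0% in the same direction). The 2 sets were not matched by level. Protein-coding genes had a median level of 6.47 and 52.7% passed, while antisense genes had one of 4.76 and 20.04% passed. Shares of pairs with both members passed can differ for that reason, and its part in these shares was not tested. r was 0.43 over the 28 pairs and 0.55 over the 216.

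The 5 pairs of this kind whose antisense gene passed are printed as the window of the sense gene, 5′ to 3′, to show how short the stretch is from which 2 RNAs start in opposite directions. Capitals mark the bases that also lie in the window of the antisense gene. The windows are chr4:144645906-144646205 on the plus strand for HHIP, chr4:183099007-183099306 on the plus strand for WWC2, chr19:36489512-36489811 on the minus strand for ZNF566, chr13:79406206-79406505 on the minus strand for RBM26 and chrX:46545372-46545671 on the minus strand for ZNF674.
HHIP: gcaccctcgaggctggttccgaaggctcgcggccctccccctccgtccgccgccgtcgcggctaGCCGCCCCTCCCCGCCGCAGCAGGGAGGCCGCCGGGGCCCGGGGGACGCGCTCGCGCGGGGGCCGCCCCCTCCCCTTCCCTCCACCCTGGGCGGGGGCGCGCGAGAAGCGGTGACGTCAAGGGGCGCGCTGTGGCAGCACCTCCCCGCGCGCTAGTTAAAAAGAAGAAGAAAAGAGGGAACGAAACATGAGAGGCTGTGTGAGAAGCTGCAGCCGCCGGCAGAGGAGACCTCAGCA
WWC2: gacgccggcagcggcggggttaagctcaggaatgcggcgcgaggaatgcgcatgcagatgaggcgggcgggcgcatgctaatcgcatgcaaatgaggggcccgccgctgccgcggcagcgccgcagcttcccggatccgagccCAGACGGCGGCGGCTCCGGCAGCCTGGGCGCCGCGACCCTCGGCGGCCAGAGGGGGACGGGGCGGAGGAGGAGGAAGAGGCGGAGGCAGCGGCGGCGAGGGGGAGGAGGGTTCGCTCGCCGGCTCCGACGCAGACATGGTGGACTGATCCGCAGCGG
ZNF566: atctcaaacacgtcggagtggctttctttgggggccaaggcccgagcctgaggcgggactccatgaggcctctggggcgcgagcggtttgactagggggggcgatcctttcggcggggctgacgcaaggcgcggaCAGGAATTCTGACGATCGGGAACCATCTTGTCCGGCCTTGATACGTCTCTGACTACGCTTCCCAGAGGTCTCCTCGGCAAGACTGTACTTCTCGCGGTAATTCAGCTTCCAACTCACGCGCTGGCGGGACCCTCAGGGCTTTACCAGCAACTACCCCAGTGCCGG
RBM26: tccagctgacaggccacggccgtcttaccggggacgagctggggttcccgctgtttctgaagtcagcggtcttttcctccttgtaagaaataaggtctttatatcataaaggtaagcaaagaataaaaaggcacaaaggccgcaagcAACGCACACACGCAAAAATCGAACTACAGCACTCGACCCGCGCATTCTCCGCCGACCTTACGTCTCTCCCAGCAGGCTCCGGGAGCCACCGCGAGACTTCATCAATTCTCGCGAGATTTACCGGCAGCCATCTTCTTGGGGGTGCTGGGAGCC
ZNF674: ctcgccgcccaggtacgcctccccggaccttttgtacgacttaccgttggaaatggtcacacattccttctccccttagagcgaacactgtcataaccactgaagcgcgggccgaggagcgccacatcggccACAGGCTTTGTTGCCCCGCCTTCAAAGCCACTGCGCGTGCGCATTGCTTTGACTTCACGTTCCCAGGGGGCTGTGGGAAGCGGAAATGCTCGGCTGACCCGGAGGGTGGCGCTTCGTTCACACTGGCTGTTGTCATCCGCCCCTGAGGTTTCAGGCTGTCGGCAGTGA
The annotated starts of the pairs are 137 bases apart for HHIP, 58 for WWC2, 66 for ZNF566, 54 for RBM26 and 69 for ZNF674. In the first 3 of these loci the antisense gene fell and the sense gene rose, in the RBM26 locus both rose, and in the ZNF674 locus the antisense gene rose alone. ZNF674-AS1 measured 6.56, 6.48, 6.67 and 6.70 in the RWDD4 clones, against 6.12, 6.30, 5.90 and 6.09 in the control clones, with no overlap and a difference of 0.50 (SE 0.10, limma adjusted p = 0.00312). ZNF674, a zinc finger gene of the X chromosome, differed by 0.30 (SE 0.12, limma adjusted p = 0.0555) and did not pass.

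The windows were searched on both strands for GGGCGG (the GC box), CCAAT and TATAAA. The GC box was found in the HHIP, WWC2 and ZNF674 windows, TATAAA in the RBM26 window, and none of the 3 motifs in the ZNF566 window. Of all RefSeq windows 44.6% held GGGCGG, 35.7% held CCAAT and 11.95% held TATAAA. Among the windows of antisense genes the shares were 41.7%, 34.5% and 9.36%, and among those of the sense partners 62.5%, 32.8% and 8.59%. GGGCGG was held by 13 of 18 matched windows of antisense genes that were higher and by 31 of 62 of those that were lower. Of the windows of all measured genes 60.5% held it, and the shares were not tested. A match is a run of letters and not a site.

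Several sense genes had more than 1 measured antisense gene. There were 11 such sense genes, and of their antisense genes only ZNF503-AS2 passed. By comparison, 20.04% of all antisense genes and 46.7% of all genes passed. For DIAPH3 the differences were -0.20 for DIAPH3-AS1 and 0.16 for DIAPH3-AS2, beside 1.62 for the sense gene. For ZNF32 the 3 antisense genes ZNF32-AS1, ZNF32-AS2 and ZNF32-AS3 differed by 0.02, 0.13 and 0.10 and did not pass, beside 0.47 for the sense gene, which passed. ZNF503-AS1 and ZNF503-AS2 thus differed more from each other than the antisense genes of these other 2 loci.

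The 6 antisense genes with the highest levels were LOXL1-AS1, PRRT3-AS1, ASB16-AS1, DHRS4-AS1, PITPNA-AS1 and FGD5-AS1. Of these LOXL1-AS1 and FGD5-AS1 rose and ASB16-AS1 fell. ASB16-AS1 measured 8.59, 8.52, 8.43 and 8.47 in the RWDD4 clones, against 8.93, 8.93, 8.72 and 8.74 in the control clones, with no overlap and a difference of -0.33 (SE 0.09, limma adjusted p = 0.0138). PRRT3-AS1 (0.14), DHRS4-AS1 (0.05) and PITPNA-AS1 (0.12) did not pass, with adjusted p-values of 0.4, 0.68 and 0.353. DHRS4-AS1 is known to silence genes of the DHRS4 cluster. DHRS4 itself was lower, with a difference of -0.32 (SE 0.10, limma adjusted p = 0.0278), while DHRS4-AS1 averaged 8.68 ± 0.16 in the RWDD4 clones and 8.62 ± 0.09 in the control clones (SD, n = 4 each).

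Of a list of antisense genes with a published role, 40 were measured, of which 6 were higher, 8 were lower and 26 did not pass, with a median difference of -0.10. Over all antisense genes 20.04% passed, and over all genes 46.7%. The 6 were ZNF667-AS1, HIF1A-AS2, FGD5-AS1 and BACE1-AS, each given with its values already, and MCM3AP-AS1 and FEZF1-AS1. FEZF1-AS1, studied in colorectal cancer, measured 5.66, 5.64, 5.94 and 6.01 in the RWDD4 clones, against 5.61, 5.46, 5.46 and 5.54 in the control clones. Its groups did not overlap but lay close, with a difference of 0.30 (SE 0.11, limma adjusted p = 0.0414) that lost its call without any one of RWDD4 clones 5 and 6 and control clones 3, 4 and 5. The 8 were HOXA11-AS, EGFR-AS1, USP30-AS1, STARD4-AS1, GATA3-AS1, DLX6-AS1, LEF1-AS1 and SNAI3-AS1. STARD4-AS1 differed by -0.34 (SE 0.10, limma adjusted p = 0.0158). GATA3-AS1, named for the transcription factor GATA3, measured 4.16, 4.19, 4.06 and 3.97 in the RWDD4 clones, against 4.58, 4.29, 4.38 and 4.40 in the control clones. All RWDD4 clones were below all controls, with a difference of -0.32 (SE 0.10, limma adjusted p = 0.0197), and the call was lost without RWDD4 clone 5 or RWDD4 clone 6. The other probe set of GATA3-AS1 did not pass (-0.16, limma adjusted p = 0.2125).

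DLX6-AS1, whose mouse counterpart Evf2 regulates Dlx genes, differed by -0.35 (SE 0.13, limma adjusted p = 0.0409) and lost its call without any one of the 4 RWDD4 clones or of control clones 2 and 5. SNAI3-AS1 differed by -0.41 (SE 0.15, limma adjusted p = 0.0464), with overlap, and lost its call without any one of the 4 RWDD4 clones or of control clones 2 and 3. LEF1-AS1 differed by -0.22 (SE 0.08, limma adjusted p = 0.047) and lost its call in all 8 fits that left out a clone.

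Among those that did not pass were several of the best known antisense RNAs. CDKN2B-AS1, also called ANRIL, which binds Polycomb proteins at the INK4 locus, measured 5.15, 5.42, 5.60 and 5.55 in the RWDD4 clones, against 5.79, 5.34, 5.70 and 5.63 in the control clones. The groups overlapped (-0.18, adjusted p = 0.263). CBR3-AS1, first described in prostate cancer as PlncRNA-1, measured 5.42, 5.37, 4.95 and 5.28 in the RWDD4 clones, against 5.73, 5.72, 5.32 and 5.50 in the control clones. The groups overlapped and the difference of -0.31 (SE 0.13, limma adjusted p = 0.07) missed the threshold, which it passed without control clone 4 (-0.40, limma adjusted p = 0.0381). AFAP1-AS1 measured 5.33, 5.36, 5.24 and 6.30 in the RWDD4 clones, against 5.60, 5.88, 4.64 and 5.59 in the control clones. RWDD4 clone 6 and control clone 4 stood apart from their groups, and the gene did not pass (adjusted p = 0.725). GAS6-AS1 varied more between clones than between groups, measuring 7.04, 5.57, 7.18 and 7.52 in the RWDD4 clones, against 6.59, 7.55, 6.86 and 7.02 in the control clones. ZEB1-AS1, ZEB2-AS1, WT1-AS and BDNF-AS differed by -0.09, -0.07, -0.20 and 0.06, and none of the 4 passed.

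Antisense genes at the HOX clusters, which pattern the body axis, numbered 6, of which 2 were lower and 0 higher. Of all antisense genes 15.95% were lower, and of all genes 21.6%. The 2 were HOXA11-AS (-0.54) and HOXC13-AS (-0.23, SE 0.08, limma adjusted p = 0.0425); HOXC13-AS was chosen after its values were seen. HOXA10-AS (0.03), HOXB-AS3 (-0.11) and HOXD-AS2 (-0.08) did not pass. Of 15 antisense genes named for ZNF genes 2 were higher (ZNF667-AS1 and ZNF674-AS1) and 3 were lower (ZNF503-AS2, ZNF566-AS1 and ZNF295-AS1), with differences from -0.99 to 1.44. Over all antisense genes 4.09% were higher and 15.95% lower, and over all genes 25.1% and 21.6%.

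The proteins that act on antisense RNA were set beside these counts by lists of genes. Nuclear RNA decay by the exosome removes many promoter antisense RNAs. A list of RNA decay and exosome genes had 21 of 26 measured, of which 14 were higher and 3 were lower. Over all genes 25.1% were higher and 21.6% lower. The list also holds genes outside the nuclear exosome. Among these XRN1, XRN2 and DIS3L were higher and UPF1 was lower. The median difference of the list was 0.84, against -0.08 over all genes. MTREX, the helicase that feeds the nuclear exosome, averaged 8.62 ± 0.37 in the RWDD4 clones and 6.06 ± 0.70 in the control clones (SD, n = 4 each), a difference of 2.56 (SE 0.31, limma adjusted p = 0.000138). The catalytic subunit DIS3 averaged 8.38 ± 0.24 in the RWDD4 clones and 6.26 ± 0.52 in the control clones and differed by 2.12 (SE 0.23, limma adjusted p = 9.12e-05), and the nuclear subunit EXOSC10 averaged 9.69 ± 0.10 in the RWDD4 clones and 8.52 ± 0.19 in the control clones and differed by 1.17 (SE 0.11, limma adjusted p = 6.32e-05). The core subunits EXOSC4 and EXOSC5 and the helicase UPF1 were the 3 that were lower, with differences of -0.71 (SE 0.12, limma adjusted p = 0.000985), -0.45 (SE 0.15, limma adjusted p = 0.031) and -0.33 (SE 0.08, limma adjusted p = 0.00739). Whether any of these bore on the antisense genes was not tested.

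Chromatin silencers with which antisense RNAs are known to work had 17 of 22 measured, 11 higher and 2 lower (25.1% and 21.6% over all genes), with a median of 0.43. The Polycomb subunits EZH2 and SUZ12 averaged 8.80 ± 0.10 in the RWDD4 clones and 7.59 ± 0.12 in the control clones for EZH2 (difference 1.22, SE 0.10, limma adjusted p = 5.26e-05) and 9.12 ± 0.12 in the RWDD4 clones and 7.65 ± 0.41 in the control clones for SUZ12 (difference 1.47, SE 0.18, limma adjusted p = 0.000138). CBX7, the Polycomb protein that binds ANRIL, was lower, with a difference of -0.43 (SE 0.13, limma adjusted p = 0.0169). Genes that process or sense double-stranded RNA, which paired sense and antisense transcripts can form, had 11 of 28 measured, 4 higher and 2 lower, with a median of 0.19, and 46.7% of all genes passed. DHX9, a helicase that unwinds RNA duplexes, was higher by 1.77 (SE 0.22, limma adjusted p = 0.000171) and the kinase EIF2AK2, which senses them, by 0.82 (SE 0.26, limma adjusted p = 0.0254). The Dicer partner TARBP2 and the sensor regulator DHX58 were lower, with differences of -0.43 (SE 0.09, limma adjusted p = 0.00275) and -0.29 (SE 0.10, limma adjusted p = 0.0344). Genes of promoter direction and transcript termination had 14 of 29 measured, 4 higher and 5 lower (25.1% and 21.6% over all genes), with a median of 0.07.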

How the data were processed

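Total RNA of 8 PC-3 clones was measured on 1 Affymetrix array each. The authors deposited log2 values per probe set, made with Partek and RMA per the submitters' processing notes, which hold no versions. RMA corrects background, normalizes arrays to each other and compresses small folds near background. The sources used here do not give the genome build, scan batches or the strand of the probe sets, and the number of arrays limits the precision. Of 53617 probe sets, 16098 had 1 symbol and stood for 14884 genes. No filter was applied. RWDD4 minus control was fitted for all genes with lmFit and eBayes (limma 3.58.1, R 4.3.3), two-sided, with Benjamini-Hochberg adjustment over all genes, after the steps were tested on simulated data. A gene passed, rose or fell at an adjusted p under 0.05. Antisense minus sense log2 values were fitted with 4652 neighbouring pairs, 4974 in all. SD is over 4 clones and SE is from the fit.

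The members, lists and alternatives were chosen with earlier results of these data known. Named were RWDD4, the 12 antisense genes that passed without overlap and differed most in each direction, their partners, 10 pairs by the adjusted p of the antisense-minus-sense value, the opposite pairs, the 6 antisense genes with the highest mean, and those with a published role. Alternatives covered variance model, probe set, level filter, scaling, array weights, span trend (lowess, span 0.3), within-group axis and single clones.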

Additional observations from a re-analysis of the deposited data

Results flagged for a closer look

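Among 220 groups of 4 clones (110 named genes in both groups), 9 (4.09%) held a clone whose gap to the nearest other clone exceeded Dixon's 95% critical value as a share of the group's range. Chance flags about 1 in 20 groups, so this number is about what chance gives. RWDD4 clone 6 was lowest for RWDD4 itself, at 9.87 against 10.42 to 10.46 in the other RWDD4 clones. It was also lowest for CIRBP-AS1, at 4.76 against 5.27 to 5.37, and highest for AFAP1-AS1, at 6.30 against 5.24 to 5.36. VWA8 was lowest in RWDD4 clone 24, at 7.07 against 7.46 to 7.52, and OBI1 was highest in RWDD4 clone 5, at 7.54 against 6.77 to 6.90. Among the control clones, KTN1-AS1 was lowest in clone 5, at 4.87 against 5.21 to 5.24, and CIRBP was highest in clone 4, at 9.27 against 9.10 to 9.12. Control clone 2 had the lowest value of EHBP1 (5.86 against 6.31 to 6.37) and of DHRS4-AS1 (8.48 against 8.65 to 8.68).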

How the results depend on the processing

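The mean-variance trend, robust moderation, the mean of all probe sets, the lowest probe set, all probe sets tested singly and current symbols kept every count of antisense genes, sense partners and pairs within 1.5 times of the reported one. With the filter on level, which tests fewer genes, 51 sense partners were higher, 35 were lower, and 8 pairs were higher in both members, 3 were opposite and 49 passed by the antisense-minus-sense value. Median centring gave 51 antisense genes lower, 28 sense partners lower, and 11 pairs higher and 3 lower in both members. Cyclic loess gave 31 antisense genes higher and 30 lower, 27 sense partners lower, and 12 pairs higher, 2 lower and 3 opposite. Array weights gave 8 pairs higher and 9 lower in both members. Removing the span trend gave 36 antisense genes higher, 91 sense partners lower and 11 pairs higher in both members. With the within-group axis in the fit all 8 counts were 0, and RWDD4 missed the threshold (1.88, limma adjusted p = 0.159). In that fit the differences changed sign to -0.078 for LOXL1-AS1, -0.38 for BACE1-AS, 0.32 for CIRBP-AS1, 0.039 for MTUS2-AS1, -0.32 for STXBP5, -0.055 for USP30, 0.014 for GATA3-AS1, 0.11 for DLX6-AS1 and 0.20 for SNAI3-AS1, and none passed. RBM26-AS1 was -0.045 with its lowest probe set. The cause of these changes was not tested.

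Leaving out 1 clone gave 17 to 23 antisense genes higher and 46 to 80 lower, 96 to 108 sense partners higher and 24 to 44 lower, 3 to 7 pairs higher in both members, 3 to 9 lower in both and 4 to 9 opposite, 91 to 114 pairs by the antisense-minus-sense value, and an RWDD4 difference of 2.70 to 3.15. The fewest calls came without RWDD4 clone 5 for antisense genes lower (46), sense partners lower (24) and pairs lower in both members (3). Of the 109 named genes other than RWDD4, 10 lost their call with cyclic loess, 6 with median centring, 5 with quantile normalization, 13 without the span trend (10 gained one) and 53 with the axis as a covariate. No paired analysis was possible because the labels link no RWDD4 clone to a control clone. The number 5 stands in both groups for separate isolates. The arrays give no signal over background per probe here.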
